A study of Mus musculus with 24 samples.

Results

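The genes of MHC class II antigen presentation were examined in the RNA-seq of mouse macrophages with and without *Olfml3*. The 7 genes were chosen by symbol (H2-Aa, H2-Ab1, H2-Eb1, Cd74, Ciita, H2-DMa and H2-DMb1), and all 7 were found among the 56691 genes of each of the 2 tables. There were 24 libraries in 8 groups of 3. RAW264.7 is a macrophage line made from a mouse tumour, and BMDMs are macrophages grown from bone marrow, here of 8-week-old male C57BL/6 mice. Both were wild type or *Olfml3* knockout and received PBS or 100 ng/mL LPS, the bacterial endotoxin, for 4 h before harvest. The knockout mice were a global line made with CRISPR-Cas9, and the knockout RAW264.7 cells were isolated as single-cell clones after lentiviral delivery of guide RNAs. Groups follow the sample titles, since the genotype tags go with the treatment instead and contradict the titles in 12 of 24 samples. No source says whether the 3 libraries of a group came from separate mice or cultures, so the p-values measure only the spread between these libraries.

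MHC class II molecules show peptides taken up from outside the cell to CD4+ T cells. An alpha and a beta chain (H2-Aa with H2-Ab1 for the A molecule, H2-Eb1 for the beta chain of the E molecule) pair in the endoplasmic reticulum with the invariant chain Cd74, which blocks the groove and guides the complex to endosomes. There proteases such as cathepsin S degrade Cd74, and the H2-DM heterodimer of H2-DMa and H2-DMb1 exchanges the remaining fragment for peptides. Ciita promotes transcription of the other genes of the group. It is a coactivator that binds no DNA itself and is recruited by factors sitting on the X and Y boxes of their promoters. Interferon-gamma is the classical inducer of Ciita in macrophages.

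Stretches of a pair of promoters are shown, with the letters that were searched for in capitals. TGATTGG stands in both, while the other capitals of each line were not found in the other promoter. They were read 5′ to 3′ on the coding strand from RefSeq windows of GRCm38.p6 that reach 250 bases before the gene start. The first lies at chr17:34287852-34287909 on the minus strand, from 86 to 29 bases before the start of H2-Aa, with TGACGTCA, the palindrome of the cyclic AMP response element, and TGATTGG, the core of a Y box, in capitals. The second lies at chr17:34305766-34305827 on the plus strand, from 101 to 40 bases before the start of H2-Eb1, with a 13-base stretch and TGATTGG in capitals.
H2-Aa: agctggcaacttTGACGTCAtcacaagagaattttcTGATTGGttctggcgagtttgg
H2-Eb1: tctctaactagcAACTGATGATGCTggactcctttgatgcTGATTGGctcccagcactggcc

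The capitals were 16 bases apart in H2-Aa and 15 bases apart in H2-Eb1. The 13-base stretch AACTGATGATGCT was the longest that the windows of H2-Eb1 and H2-DMb1 share. In H2-DMb1 it stood from 92 to 80 bases before the RefSeq start, with TGATTGG from 63 to 57 bases before it. GENCODE M21 places that part of H2-DMb1 inside the first exon. Searched on both strands, TGATTGG was in 7.23% of 32851 windows, TGACGTCA in 1.55% and the 13-base stretch in 2 windows, those of H2-Eb1 and H2-DMb1. H2-DMa had 2 windows, and none of these letters was found in them. H2-Ab1, Cd74 and Ciita had no window in the table, so their promoters were not searched. A match is a description of letters, not a measured binding site.

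In GENCODE M21 (GRCm38) the 5 genes of the H2 complex lie on chromosome 17 in the order H2-DMa (34119541 to 34139101, plus strand), H2-DMb1 (34153072 to 34160230, plus), H2-Ab1 (34257689 to 34269419, plus), H2-Aa (34282744 to 34287823, minus) and H2-Eb1 (34305867 to 34316674, plus). Ciita lies on chromosome 16 (10480059 to 10528418, plus) and Cd74 on chromosome 18 (60803848 to 60812652, plus). H2-DMa shares 3094 bases with Brd2 on the other strand. Ciita shares 25888 bases with Dexi, and H2-Eb1 shares 2204 bases with the antisense RNA Gm20513. The sources do not say whether counting used the strand, so reads in these overlaps cannot be assigned with certainty.

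The libraries held 11638273 to 16478616 counts in RAW264.7 and 17121240 to 22873094 in BMDMs. Levels are given as FPKM, fragments scaled to gene length and library size. *Olfml3* was at 0.53 to 0.65 FPKM in wild-type BMDMs with PBS and at 0.03 or below in all 6 knockout BMDM libraries. In RAW264.7 it went against the label, with 0.13 to 0.29 FPKM in wild-type libraries, 0.65 to 1.19 in those labelled knockout with PBS and 18.3 to 18.9 in those labelled knockout with LPS. The cause was not tested, so *Olfml3* RNA does not bear out the RAW264.7 labels, and the comparisons in these cells follow the labels as given. The RAW264.7 groups also differed in 4 Y-linked genes, which ranged from 0.52 to 10.9 FPKM in wild-type libraries and were at 0.01 or below in the libraries labelled knockout. Replicate 1 labelled knockout with PBS stood apart: over log2 FPKM its mean correlation was 0.973 with wild-type libraries and 0.964 with the other libraries of its label. Wild-type BMDM libraries with LPS varied more than those of the other BMDM groups (chi-square per gene 4.76 to 10.4, against 1.76 to 2.68).

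Knockout was first compared with wild type in resting BMDMs, the cells with PBS. The 2 chains of the A molecule and Cd74 fell in knockout BMDMs, to 64.5% (H2-Aa), 65.6% (H2-Ab1) and 64.0% (Cd74) of their wild-type mean. H2-Eb1 stood at 69.5% of the wild-type mean, with a fold change under the threshold. The 2 H2-DM genes were at 95.9% (H2-DMa) and 97.1% (H2-DMb1), and Ciita was at 76.7%, and none of these 3 passed the test. A gene was called when it passed 2 limits in limma on log2(FPKM + 0.1), a Benjamini-Hochberg adjusted p below 0.05 and a change of 1.5-fold or more. All log2 values from limma are on that scale, and in bulk RNA fewer cells of a type and less RNA per cell cannot be told apart. By that rule 3 of the 7 genes were called, all lower, where 0.916% of 26973 genes tested were called lower. The median log2 fold change was -0.53 over the 7 genes and 0.03 over the 11579 genes whose mean FPKM reached 1 in some group.

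H2-Aa, the alpha chain of the A molecule, was at 14.97, 14.38 and 13.71 FPKM in wild-type BMDMs with PBS and at 9.49, 8.88 and 9.41 in knockout BMDMs. Every knockout library was below every wild-type library. The means were 14.4 ± 0.63 and 9.26 ± 0.33 FPKM (SD, n = 3), a log2 fold change of -0.63 ± 0.06 (SE, limma, adjusted p = 0.000175). H2-Ab1, its beta chain, was at 12.53, 13.22 and 12.30 FPKM in wild-type and at 7.69, 8.41 and 8.86 in knockout BMDMs. These groups did not overlap either, and the log2 fold change was -0.60 ± 0.09 (SE, limma, adjusted p = 0.0057). The call for H2-Ab1 rested on its fold change being close to the threshold: it was lost with a pseudocount of 1 (-0.56), without wild-type replicate 2 (-0.57) and without knockout replicate 1 (-0.55).

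Cd74, the invariant chain, was the most abundant of the 7 genes at 72.58, 79.62 and 76.85 FPKM in wild-type BMDMs with PBS, against 50.07, 46.84 and 49.74 in knockout BMDMs. The groups were far apart, with a log2 fold change of -0.64 ± 0.06 (SE, limma, adjusted p = 0.000154), and the call was kept in all 24 alternatives tried. H2-Eb1, the beta chain of the E molecule, was at 17.80, 17.61 and 15.84 FPKM in wild-type and at 12.16, 9.99 and 13.45 in knockout BMDMs. The knockout libraries of this gene spread more than those of the other chains and still lay below all wild-type ones. Its log2 fold change was -0.53 ± 0.10 (SE, limma, adjusted p = 0.0191), under the fold threshold, and without knockout replicate 3 it was called (-0.63). Without wild-type replicate 1 or 2 its adjusted p was 0.0719 or 0.0733. By the adjusted p alone 4 of the 7 genes were lower, where 1.83% of all genes were.

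The partner of H2-Eb1 in the E molecule, H2-Ea, is not expressed in C57BL/6 mice, and it had 0 counts in all 12 BMDM libraries.

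H2-DMa and H2-DMb1, the subunits of the peptide exchanger, did not pass the test. H2-DMb1 was at 15.77, 17.02 and 15.45 FPKM in wild-type BMDMs with PBS and at 15.23, 14.77 and 16.86 in knockout BMDMs. The groups overlapped, and the log2 fold change was -0.04 ± 0.11 (SE, limma, adjusted p = 0.945). H2-DMa was at 5.24, 5.78 and 5.75 FPKM against 5.15, 5.55 and 5.38, which also overlapped (-0.06 ± 0.08, SE, limma, adjusted p = 0.798). Ciita, the coactivator of all of these genes, was at 0.58, 0.44 and 0.48 FPKM in wild-type and at 0.39, 0.32 and 0.44 in knockout BMDMs. The lowest wild-type and the highest knockout library had the same value, from 69 to 123 counts per library. limma gave -0.31 ± 0.11 (SE, adjusted p = 0.205), and the tests on counts gave a larger difference with a smaller p that stayed under the fold threshold (edgeR -0.44, adjusted p = 0.0311, and DESeq2 adjusted p = 0.0217).

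**Figure D1:**
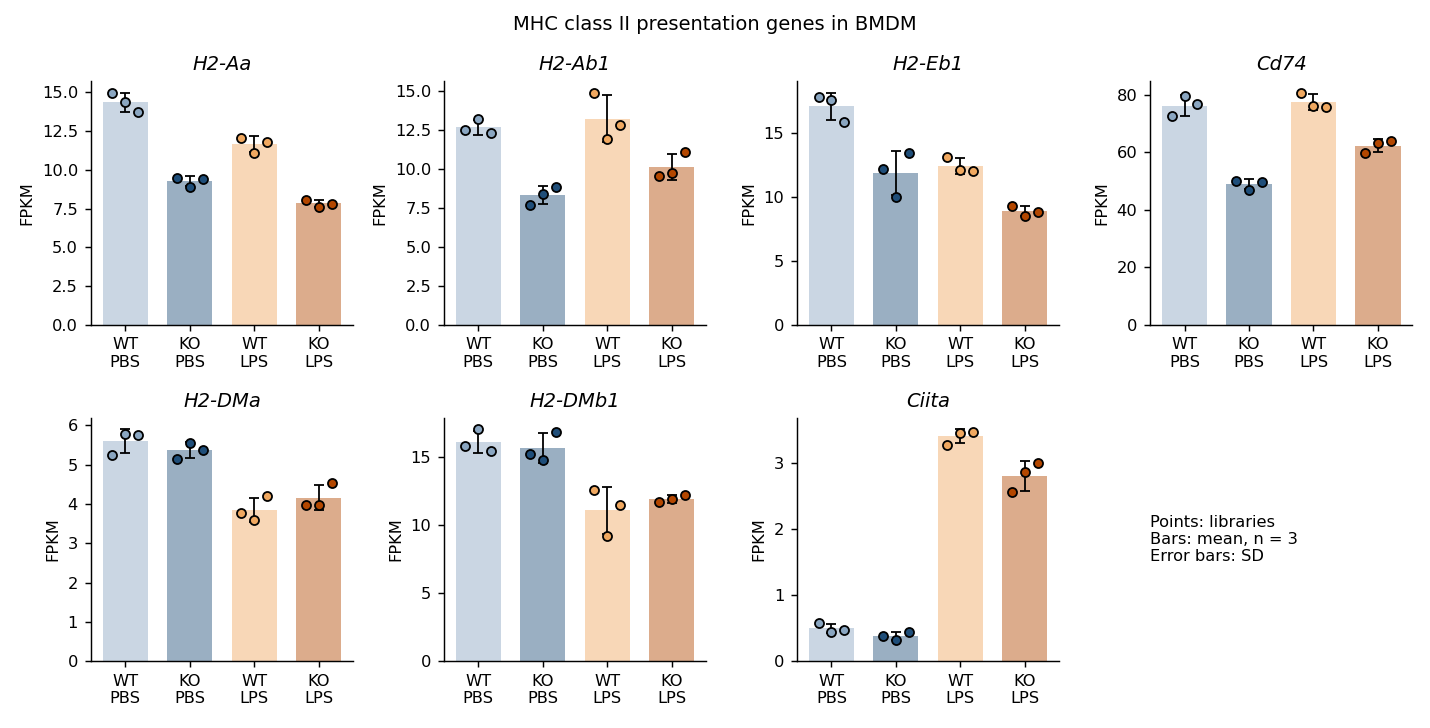
FPKM of the 7 genes in BMDMs (y axis, from 0) by genotype and treatment (x axis), with points for libraries, bars for the mean of 3 and error bars for the SD. With PBS the H2-Aa, H2-Ab1, H2-Eb1 and Cd74 points of knockout libraries lie below all wild-type points, the H2-DMa and H2-DMb1 points overlap, and Ciita is above 2.5 FPKM only in libraries with LPS.

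With LPS the same 4 genes were again lower in knockout BMDMs, by less than 1.5-fold, and none of the 7 was called, where 4.76% of 26973 genes were called in either direction. By the adjusted p alone 4 were lower, against 4.20% of all genes, and 5 had an unadjusted p below 0.05. H2-Aa alone was called without wild-type replicate 2 or without knockout replicate 1, both with LPS. H2-Aa was at 12.08, 11.07 and 11.82 FPKM in wild-type and at 8.08, 7.59 and 7.81 in knockout BMDMs with LPS. The groups did not overlap, and the log2 fold change was -0.57 ± 0.06 (SE, limma, adjusted p = 0.000151). H2-Eb1 was at 13.12, 12.09 and 12.03 FPKM against 9.33, 8.52 and 8.86, also without overlap (-0.47 ± 0.10, SE, limma, adjusted p = 0.0104). H2-Ab1 was at 14.92, 11.97 and 12.87 FPKM against 9.59, 9.73 and 11.08 (-0.38 ± 0.09, SE, limma, adjusted p = 0.0195). Wild-type replicate 1 set the upper end of that gene, and the highest knockout library came within 1 FPKM of the lowest wild-type one.

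Cd74 with LPS was at 80.85, 76.12 and 75.78 FPKM in wild-type and at 59.67, 63.31 and 64.01 in knockout BMDMs, and the groups did not overlap. Its log2 fold change of -0.32 ± 0.06 (SE, limma, adjusted p = 0.00374) was smaller than with PBS. The interaction of genotype and LPS tests that difference between the knockout effects. For Cd74 it was 0.33 ± 0.08 (SE, limma, adjusted p = 0.0405), below the fold threshold. None of the 7 genes passed both limits for the interaction, where 2.93% of all genes did, and Cd74 was the 1 gene that passed the adjusted p alone, where 6.53% did, and the 1 gene with an unadjusted p below 0.05. edgeR and DESeq2 called 0 for the interaction. Ciita with LPS was at 3.28, 3.46 and 3.47 FPKM in wild-type and at 2.56, 2.87 and 3.00 in knockout BMDMs. These did not overlap, but limma gave -0.27 ± 0.11 (SE, adjusted p = 0.145). The tests on counts gave a larger difference with a smaller p, still under the fold threshold (edgeR -0.42, adjusted p = 1.80e-05, and DESeq2 -0.44, adjusted p = 9.20e-06).

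The scale of the libraries bears on every comparison that involves LPS in BMDMs. On the deposited FPKM scale the median log2 fold change of the 11579 genes was 0.14 for knockout against wild type with LPS, -0.76 for LPS against PBS in wild type and -0.65 in knockout, and scaling libraries by the median ratio of their counts brought these medians to 0.00, 0.02 and 0.02. With that scaling 2 genes were called lower in knockout BMDMs with LPS, H2-Aa (-0.72) and H2-Eb1 (-0.63), where 2.61% of all genes were called lower. H2-Ab1 was at -0.54, Cd74 at -0.47 and Ciita at -0.42 (limma, adjusted p = 0.0258), all under the fold threshold. edgeR and DESeq2 also called 2 of the 7 genes. DESeq2 called 1187 genes in total in either direction, and no total is given for edgeR. The H2-DM genes changed sign, from 0.11 in H2-DMa and 0.11 in H2-DMb1 to -0.05 and -0.04, and passed no threshold under either scaling.

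The response to LPS was compared within each genotype. Ciita rose with LPS in BMDMs of both genotypes, from a mean of 0.50 to 3.40 FPKM in wild type and from 0.38 to 2.81 FPKM in knockout, ratios of 6.81 and 7.33. Every LPS library was above every PBS library. The log2 fold changes were 2.55 ± 0.11 and 2.59 ± 0.11 (SE, limma, adjusted p = 2.11e-08 and 2.20e-08). Ciita was the 1 of 7 genes called in each genotype, and it was higher, where 7.94% of all genes were called higher in wild type and 8.02% in knockout. The Ciita interaction was 0.04 ± 0.16 (SE, limma, adjusted p = 0.917).

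None of the other 6 genes passed both limits on the FPKM scale at 4 h. H2-DMa went from 5.59 to 3.85 FPKM and H2-DMb1 from 16.1 to 11.1 in wild-type BMDMs, with log2 fold changes of -0.53 and -0.54. H2-Eb1 (-0.46) and H2-Aa (-0.30) were also lower with LPS in wild type, while H2-Ab1 was at 0.06 (limma, adjusted p = 0.668) and Cd74 at 0.02 (limma, adjusted p = 0.798). In knockout BMDMs Cd74 was higher with LPS (48.9 against 62.3 FPKM, log2 fold change 0.35), as was H2-Ab1 (0.28), and the other 4 were lower. By the adjusted p alone 5 genes differed in wild type and 7 in knockout, where 50.7% and 50.1% of all genes did.

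These directions turned with the scaling for H2-Aa, H2-Eb1, H2-DMa and H2-DMb1 in both genotypes. With median-ratio scaling H2-Aa was at 0.50 in wild type and 0.45 in knockout, H2-Eb1 at 0.34 and 0.29, H2-DMa at 0.26 and 0.32, and H2-DMb1 at 0.26 and 0.30. Ciita (3.28 and 3.19), Cd74 (0.83 and 1.04) and H2-Ab1 (0.86 and 0.97) were then called higher, 3 of 7 genes in each genotype, where 15.0% of all genes were called higher in wild type and 13.9% in knockout. No spike-in is described, so the files do not show which scale gives the amount per cell. Ciita was called higher in both genotypes under both scalings.

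**Figure D2:**
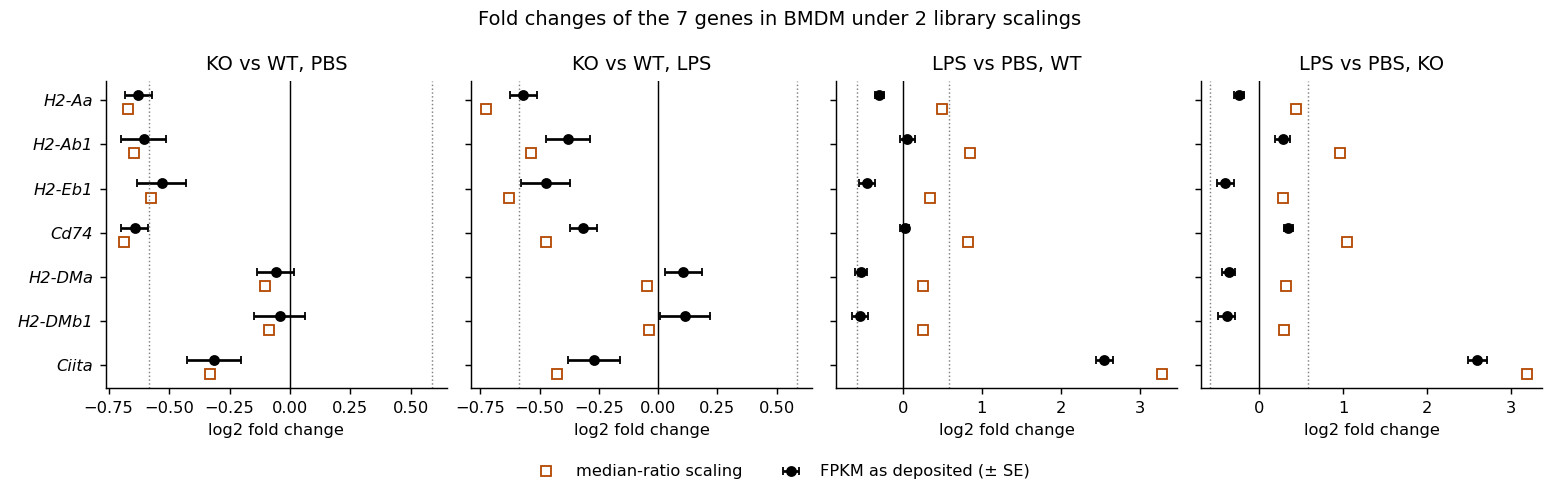
Log2 fold change (x axis) of the 7 genes (rows) in 4 comparisons in BMDMs, with filled circles and SE bars for FPKM as deposited, open squares for median-ratio scaling and dotted lines at 1.5-fold. The knockout columns keep their sign for H2-Aa, H2-Ab1, H2-Eb1, Cd74 and Ciita under both scalings, while in the LPS columns the squares lie to the right of the circles for all 7 genes and cross 0 for H2-Aa, H2-Eb1, H2-DMa and H2-DMb1.

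Ratios of genes within a library do not depend on how libraries are scaled. The summed FPKM of H2-Aa, H2-Ab1 and H2-Eb1 over that of H2-DMa and H2-DMb1 was 2.16, 1.98 and 1.97 in wild-type BMDMs with PBS and 1.44, 1.34 and 1.43 in knockout BMDMs. With LPS it was 2.46, 2.74 and 2.35 in wild-type and 1.73, 1.63 and 1.66 in knockout BMDMs. The knockout libraries thus had fewer chain transcripts per H2-DM transcript with both treatments, and the LPS libraries had more than the PBS libraries in both genotypes, with no overlap between groups. Cd74 over the 3 chains separated the treatments and not the genotypes with PBS, at 1.60 to 1.84 in wild-type and 1.57 to 1.72 in knockout BMDMs with PBS, against 2.02 to 2.17 and 2.21 to 2.45 with LPS.

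The alpha and beta chain of the A molecule also shifted against each other. H2-Aa over H2-Ab1 was 1.09 to 1.20 in wild-type and 1.06 to 1.23 in knockout BMDMs with PBS. With LPS it was 0.81 to 0.92 and 0.70 to 0.84. All 6 LPS libraries had less H2-Aa than H2-Ab1 per length, and all 6 PBS libraries had more. These ratios are given as a description, with no test.

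**Figure D3:**
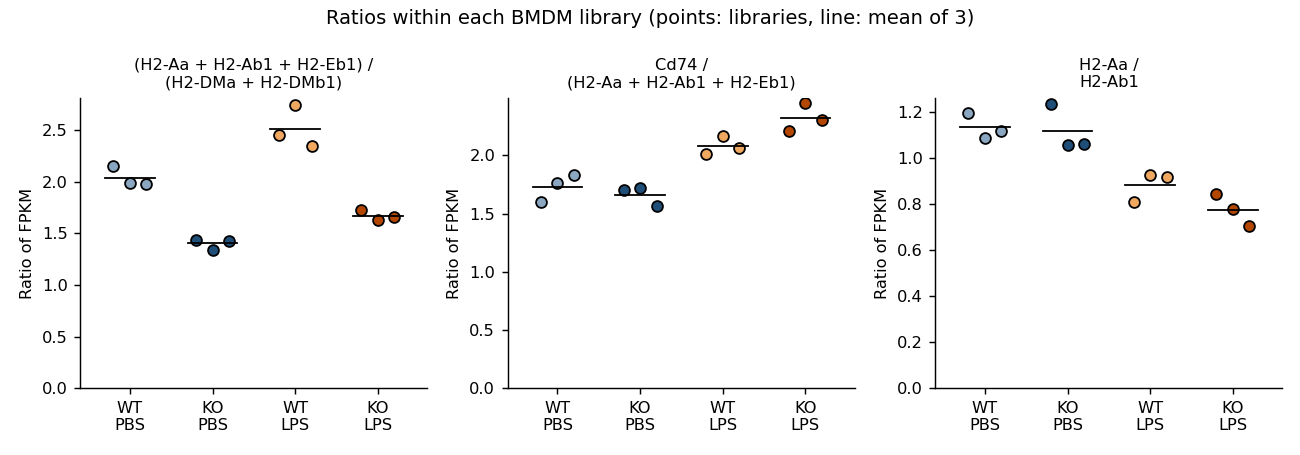
Ratios of FPKM within each BMDM library (y axes, from 0) by genotype and treatment (x axes), with points for libraries and lines for the mean of 3. The chains over H2-DM lie lower in knockout than in wild-type libraries with both treatments, and Cd74 over the chains lies higher with LPS than with PBS.

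Between genes, and per length, the order of levels in wild-type BMDMs with PBS was Cd74 (76.4 FPKM), H2-Eb1 (17.1), H2-DMb1 (16.1), H2-Aa (14.4), H2-Ab1 (12.7), H2-DMa (5.59) and Ciita (0.50). H2-Eb1 and H2-DMb1, neighbours in that order, overlapped in their libraries (15.84 to 17.80 and 15.45 to 17.02 FPKM), whereas the libraries of H2-Aa (13.71 to 14.97) and H2-Ab1 (12.30 to 13.22) did not. In knockout BMDMs with PBS H2-DMb1 (15.6 FPKM) was above all 3 chains.

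RAW264.7 cells held a different set. Of the 7 genes only Cd74 was abundant, at 84.7 to 167 FPKM over the 12 libraries, and the chains for it to accompany had almost no counts. H2-Aa had 4 counts in total over 12 libraries, H2-Ab1 had 3, H2-Eb1 had 4 and H2-DMb1 had 1. In libraries without a count the level lay under the limit that a count of 0 allows, taken as 3 counts and equal to 0.05 to 0.07 FPKM for H2-Aa and 0.09 to 0.13 FPKM for H2-Eb1, which covers counting error only. Ciita had 2 counts in wild-type libraries with PBS, 0 with LPS, 20 in the libraries labelled knockout with PBS and 7 with LPS, and its highest value was 0.06 FPKM. H2-Ea had 1 count in all. The RAW264.7 and BMDM tables were normalized separately, so levels are given side by side and were not tested against each other. RAW264.7 comes from a mouse strain with other H2 alleles than C57BL/6, on whose genome the reference is built, and the effect of that on read mapping was not tested.

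Knockout was compared with wild type in RAW264.7 as labelled. Cd74 was at 159.6, 146.1 and 144.8 FPKM in wild-type libraries with PBS and at 133.0, 84.65 and 85.35 in libraries labelled knockout. Replicate 1 labelled knockout, the library that stands apart, was the high one, and the groups did not overlap. The means were 150 ± 8.17 and 101 ± 27.7 FPKM (SD, n = 3), a log2 fold change of -0.60 ± 0.15 (SE, limma, adjusted p = 0.0358). Cd74 was the 1 of 7 genes called lower with PBS, where 3.77% of 26740 genes were. Without replicate 1 labelled knockout it was -0.82 (limma, adjusted p = 1.17e-05), and the call was lost when any other of the 12 libraries was left out (limma, adjusted p from 0.0546 to 0.131).

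With LPS Cd74 was at 165.3, 166.6 and 167.0 FPKM in wild-type libraries and at 112.3, 109.9 and 110.1 in libraries labelled knockout. The replicates lay close together and the groups far apart. The means were 166.3 ± 0.91 and 110.8 ± 1.35 FPKM (SD, n = 3), a log2 fold change of -0.59 ± 0.15 (SE, limma, adjusted p = 0.0228). The error is that of the shared fit, in which replicate 1 labelled knockout with PBS takes part, and without that library the adjusted p was 3.57e-05. The fold lay at the threshold, and the call was lost with a pseudocount of 1 (-0.58), with TPM scaling (-0.35) and when any library with LPS was left out (limma, adjusted p from 0.0569 to 0.0636).

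H2-DMa in RAW264.7 was at 0.97, 1.36 and 1.31 FPKM in wild-type libraries with LPS and at 0.47, 0.20 and 0.81 in those labelled knockout, from 9 to 69 counts per library. The groups did not overlap, with a log2 fold change of -1.27 ± 0.35 (SE, limma, adjusted p = 0.0278). With PBS it was at 1.48, 1.10 and 1.52 FPKM against 1.28, 1.01 and 0.79, which overlapped (-0.39 ± 0.35, SE, limma, adjusted p = 0.517). The call was lost without wild-type replicate 2 or 3 or replicate 1 or 2 labelled knockout with LPS (limma, adjusted p from 0.0597 to 0.0836), in a fit of these 2 groups alone (adjusted p = 0.0820) and with a pseudocount of 1, where the log2 fold change was -0.58. Cd74 and H2-DMa were the 2 of 7 genes called lower with LPS, where 7.60% of all genes were. Brd2, which overlaps H2-DMa on the other strand, was at 32.5 to 33.7 FPKM in wild-type and 42.6 to 43.1 FPKM in libraries labelled knockout with LPS, the opposite direction, and its part in the H2-DMa reads was not tested. H2-DMb1, the partner of H2-DMa, had its 1 count in a wild-type library with LPS.

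LPS changed none of the 7 genes in RAW264.7 past the threshold, in wild type (where 18.3% of all genes were called) or in the libraries labelled knockout (22.1%), and no interaction was called (1.95%). With limma 0 of the 7 genes passed the adjusted p alone in these 3 comparisons, where 24.4%, 28.3% and 2.09% of all genes did. Of the 7, 0, 1 and 0 genes had an unadjusted p below 0.05. edgeR and DESeq2 called 0 in each. H2-Aa, H2-Ab1, H2-Eb1, H2-DMb1 and Ciita had 29 counts or fewer each in RAW264.7, which left little room for a call. The filter of edgeR left these genes out, so for them the result does not show whether LPS had an effect. Cd74 was 0.15 ± 0.15 in wild type and 0.17 ± 0.15 in libraries labelled knockout (SE, limma). With edgeR the Cd74 values were 0.37 and 0.37 (adjusted p = 0.0442 and 0.0415), under the fold threshold. H2-DMa was at -1.04 ± 0.35 (SE, limma, adjusted p = 0.0539) in libraries labelled knockout, and this value was called under filters on low FPKM and without replicate 3 labelled knockout with LPS.

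**Figure D4:**
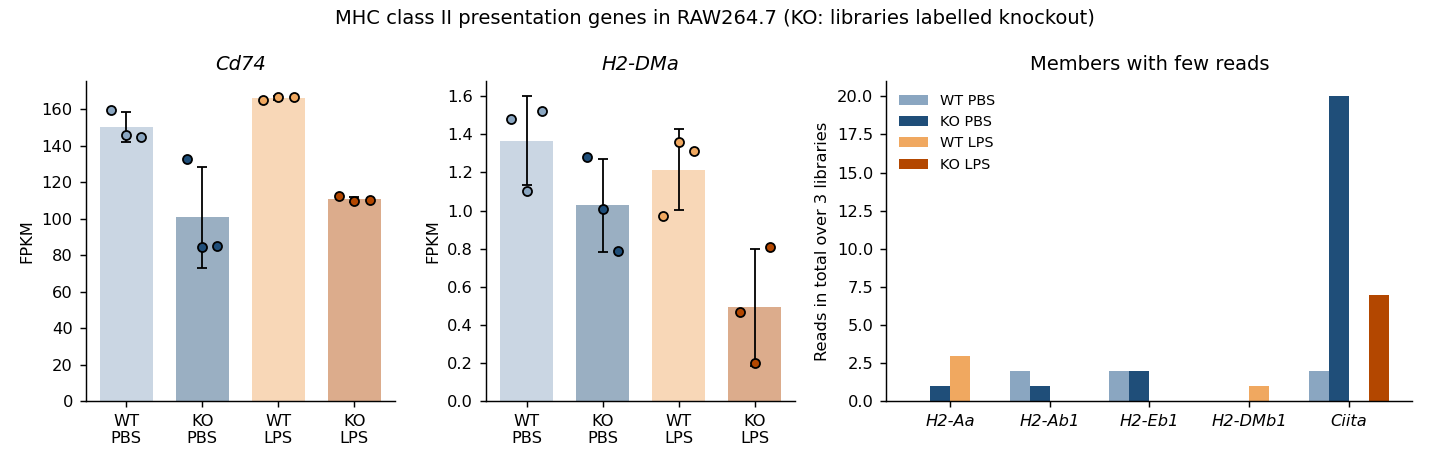
Left and middle, FPKM of Cd74 and H2-DMa in RAW264.7 (y axes, from 0) by label and treatment, with points for libraries, bars for the mean of 3 and error bars for the SD. Right, reads in total over the 3 libraries of each group for the other 5 genes, which reach 20 only for Ciita in libraries labelled knockout with PBS.

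The factors that recruit Ciita to these promoters were read next. Of 7 genes (Rfx5, Rfxap and Rfxank of the RFX complex on the X box, Nfya, Nfyb and Nfyc of the NF-Y complex on the Y box, and Creb1), none was called in knockout BMDMs with PBS. Rfx5 was at 2.50 to 2.65 FPKM in wild-type and 2.17 to 2.90 in knockout BMDMs with PBS, a log2 fold change of -0.02 ± 0.13 (SE, limma, adjusted p = 1). With LPS 1 was called higher in knockout BMDMs, where 3.23% of all genes were: Rfxank, at 0.25 to 0.54 FPKM in wild type against 0.59 to 0.71, named after its values were seen and lost with median-ratio scaling (adjusted p = 0.128). With LPS against PBS, 4 of the 7 were called lower in each genotype, where 32.5% of all genes were called lower in wild type and 30.9% in knockout. Rfxank (-2.07 in wild type and -1.38 in knockout) and Rfxap (-1.95 and -1.75) fell most, and both were also called lower with median-ratio scaling, under which Nfya and Nfyc were not called and Rfx5 (0.90 and 0.74) and Nfyb (1.15 and 0.77) were called higher.

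In RAW264.7 Rfx5, Rfxap and Creb1 differed between the labels, and Rfxank did not pass the test with either treatment. Rfx5 was higher in the libraries labelled knockout with PBS (4.63 to 8.01 against 3.31 to 3.95 FPKM, 0.88 ± 0.19, SE, limma, adjusted p = 0.0181) and with LPS (6.49 to 7.93 against 2.88 to 3.09 FPKM, 1.23 ± 0.19, SE, limma, adjusted p = 0.0019). Rfxap was lower with both (-0.60 and -0.64), and Creb1 was higher (0.63 and 0.77). So 2 of 7 factors were called higher with either treatment, where 4.79% of all genes were with PBS and 9.73% with LPS, and 1 was called lower, where 3.77% and 7.60% were. With median-ratio scaling Creb1 was not called with PBS.

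Of 10 genes known to regulate Ciita or to carry the interferon-gamma signal, 9 were tested in each cell type. Ifng itself had an FPKM of 0 in all 24 libraries. With PBS limma called 0 of the 9 between the genotypes in BMDMs, as did edgeR and DESeq2, and 2 had an unadjusted p below 0.05, Irf8 (-0.26) and Jak2 (-0.18). Irf1, a transcription factor that acts on the Ciita promoter, overlapped at 12.2 to 13.0 and 10.7 to 12.7 FPKM (-0.13 ± 0.06, SE, limma, adjusted p = 0.397).

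With LPS 2 of the 9 regulators were called in BMDMs, both lower in knockout, where 1.53% of all genes were called lower. Irf8, a factor of macrophage and dendritic cell identity, was at 165 to 178 FPKM in wild-type and 37.5 to 42.5 in knockout BMDMs (-2.09 ± 0.06, SE, limma, adjusted p = 2.26e-07). Socs1, an inhibitor of the Jak kinases, was at 29.5 to 37.9 against 13.2 to 16.9 FPKM (-1.04 ± 0.20, SE, limma, adjusted p = 0.00531). Irf1 was at -0.39 ± 0.06, under the fold threshold. In the response to LPS itself, 6 regulators rose and 1 fell in wild-type BMDMs and 7 rose and 1 fell in knockout, where 7.94% and 8.02% of all genes were called higher and 32.5% and 30.9% lower. Socs1 (6.91 and 6.15), Irf1 (4.25 and 3.99) and Jak2 (4.15 and 4.30) rose most in both, and Ifngr1, a chain of the interferon-gamma receptor, fell (-2.23 and -1.97).

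In RAW264.7 the regulators gave 1 call with PBS, where 8.55% of 26740 genes were called in either direction. It was Socs1 at 0.13 to 0.21 against 0.04 to 0.10 FPKM, named after its values were seen. With LPS 3 regulators were called, where 17.3% of all genes were. Prdm1, a repressor of Ciita in plasma cells, was at 0 to 0.02 FPKM in wild-type libraries and at 0.92 to 1.33 FPKM in those labelled knockout with LPS. Irf1 was lower there (24.4 to 25.6 against 13.5 to 15.7 FPKM, -0.77 ± 0.09, SE, limma, adjusted p = 0.000539), as was Socs1 (-0.72).

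Among 8 genes of endosomal proteases and the reductase Ifi30, none was called between the genotypes in BMDMs on the FPKM scale. Ctss, cathepsin S, which makes the last cuts in Cd74, came nearest, at 3164 to 3265 FPKM in wild-type and 2152 to 2167 in knockout BMDMs with PBS. These groups did not overlap (-0.57 ± 0.05, SE, limma, adjusted p = 0.000125), nor did those with LPS (2678 to 2974 against 1940 to 1974 FPKM, -0.51 ± 0.05). With median-ratio scaling Ctss was called with both treatments (-0.61 and -0.67). In the RAW264.7 libraries labelled knockout 2 of 8 were called lower with PBS, where 3.77% of all genes were. With LPS 6 were called lower, where 7.60% were, and Sppl2a was called higher (48.45 to 50.70 against 32.22 to 32.99 FPKM). Ctsl, cathepsin L, was at 44.7 to 47.2 FPKM in wild-type and 14.1 to 20.2 in libraries labelled knockout with PBS (-1.48), and at 38.2 to 41.4 against 10.95 to 11.61 FPKM with LPS (-1.79). Ctsd (-1.48), Lgmn (-1.09) and Ifi30 (-0.75) had the next largest changes with LPS, and Ctss was at -0.54 ± 0.10, under the fold threshold.

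With LPS against PBS in BMDMs, 1 of the 8 rose and 3 fell in each genotype. Of all genes 7.94% were called higher and 32.5% lower in wild type, and 8.02% and 30.9% in knockout. Sppl2a rose (1.04 in wild type and 1.19 in knockout), and Ifi30 (-0.80 and -0.85), Lgmn (-0.78 and -0.79) and Ctsd (-0.74 and -0.81) fell. With median-ratio scaling 0 fell in either genotype, where 16.3% and 15.8% of all genes were called lower. Under it 3 rose in wild type (Ctss, Ctsz and Sppl2a) and 2 in knockout (Ctsz and Sppl2a), where 15.0% and 13.9% of all genes were called higher. Ctss and Ctsz were named after their values were seen.

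The other class II genes of the locus were at or near 0 apart from H2-DMb2 in BMDMs. H2-DMb2, a near copy of H2-DMb1 whose reads may be split with it, was at 0.87 to 1.30 FPKM in wild-type BMDMs with PBS and 0.13 to 0.33 with LPS. It was the 1 of 4 tested that was called lower with LPS (-2.05 in wild type and -1.79 in knockout), where 32.5% and 30.9% of all genes were. None of the 4 was called between the genotypes in BMDMs. In RAW264.7 1 was called, H2-Ob with PBS, higher in libraries labelled knockout, where 4.79% of all genes were. It was at 0.06 to 0.13 FPKM in those libraries and 0 in wild type. H2-Ob was named after its values were seen, and the call was lost with median-ratio scaling (limma, adjusted p = 0.0516). Among 4 genes tied to the turnover of surface class II (the ligases Marchf1 and Marchf8, Cd83, which opposes Marchf1, and Il10, which induces it), Il10 was called lower in knockout BMDMs with PBS (-0.63) and with LPS (-0.70), where 0.916% and 1.53% of all genes were. Marchf1 was at -0.40 and -0.52 in the same comparisons and was not called, while with median-ratio scaling Marchf1 (-0.68) and Cd83 (-0.64) were called lower with LPS as well. In RAW264.7 with LPS Il10 was called lower in the libraries labelled knockout (2.38 to 2.49 against 0.12 to 0.31 FPKM) and Cd83 higher (0.73), where 7.60% of all genes were called lower and 9.73% higher.

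**Figure D5:**
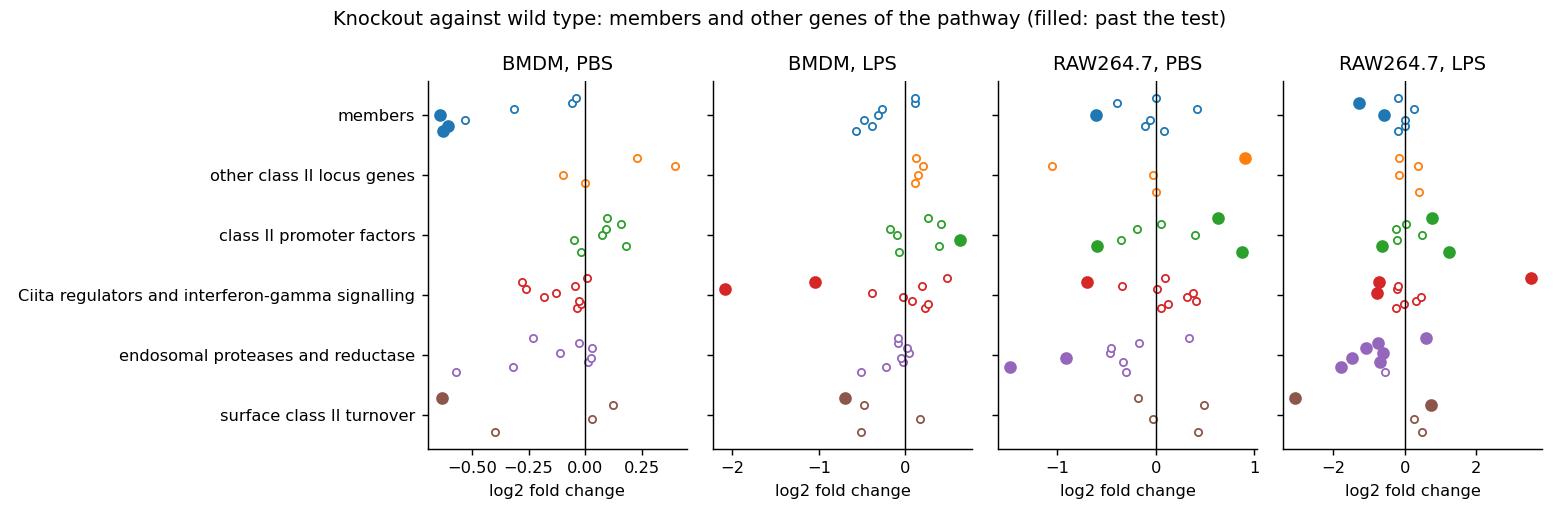
Log2 fold change of knockout against wild type (x axes, each with its own range) for the 7 genes and 5 lists of the pathway (rows), with a point per gene and filled points for genes called by limma. In BMDMs the filled points of the members lie near -0.6 with PBS and none is filled with LPS, and in RAW264.7 with LPS most of the endosomal proteases are filled and below 0.

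The cells were checked against markers of macrophages and of the other cells that express class II. The 6 macrophage markers (Adgre1, Csf1r, Itgam, Cd68, Mertk and Fcgr1) summed to 2573 to 2659 FPKM in wild-type and 2298 to 2341 in knockout BMDMs with PBS, and to 1943 to 1976 and 1735 to 1769 with LPS, so with either treatment their sum, most of it Cd68, was lower in knockout BMDMs. Of the 6, 1 was called lower with each treatment, Fcgr1, where 0.916% of all genes were with PBS and 1.53% with LPS. Its means were 118.5 FPKM in wild-type and 53.4 in knockout BMDMs with PBS, and 260.0 and 166.8 with LPS. The means of Csf1r with PBS (372.1 and 391.3 FPKM) and of Adgre1 with LPS (325.4 and 360.1) were higher in knockout. The part of these markers in the class II result was not tested. The 4 B cell markers (Cd79a, Cd79b, Ms4a1 and Pax5) summed to 0.99 to 1.41 FPKM in wild-type and 1.19 to 1.73 in knockout BMDMs with PBS, and to 0.51 FPKM or less with LPS. The 6 markers of conventional dendritic cells summed to 0.15 to 0.34 and 0.19 to 0.27 FPKM with PBS and to 0.92 to 1.09 and 0.84 to 1.83 FPKM with LPS. With LPS 1 of them, Clec9a, was called lower in knockout (means of 0.19 and 0.08 FPKM), where 1.53% of all genes were. In all 12 BMDM libraries 3 of the 4 B cell markers and 5 of the 6 dendritic cell markers stayed below 0.5 FPKM. Cd79b was at 0.94 to 1.37 FPKM in wild-type and 1.13 to 1.69 in knockout BMDMs with PBS. The part of other cells in the class II result was not tested. In RAW264.7 Mertk had 0 counts in all 12 libraries, and the B cell sum stayed at or below 0.52 FPKM. The dendritic cell sum was 0.08 to 0.17 FPKM in wild-type and 0.17 to 0.49 in libraries labelled knockout with PBS, and 0.20 to 0.50 against 0.59 to 1.10 with LPS. With LPS Zbtb46 and Xcr1, 2 of the 4 tested, were called higher, where 9.73% of all genes were. In RAW264.7 the macrophage sum was 867 to 889 FPKM in wild-type and 795 to 877 in libraries labelled knockout with PBS, and 596 to 610 against 429 to 437 with LPS. Of the 5 tested, 2 were called lower with PBS (Adgre1 and Itgam) and 2 with LPS (Itgam and Fcgr1), where 3.77% and 7.60% of all genes were. The part of the macrophage and dendritic cell markers in the Cd74 and H2-DMa results was not tested. The T and NK cell sum was at most 0.37 FPKM in the 24 libraries, the granulocyte sum 3.81 and the fibroblast sum 1.32.

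Over the 12 BMDM libraries, the gene most like the chains and Cd74 was mt-Rnr1, the mitochondrial 12S ribosomal RNA, with a Pearson correlation of 0.98 with the mean of the z-scored log2 values of H2-Aa, H2-Ab1, H2-Eb1 and Cd74. It was followed by Ifi27l2a (0.97), Pla2g7 (0.96), Ctss (0.96) and Shisa5 (0.96). Ifi27l2a, an interferon-induced gene, had means of 62.9 FPKM in wild-type and 7.75 in knockout BMDMs with PBS, and 46.1 and 11.4 with LPS. mt-Rnr1 had means of 1320 and 436.5 FPKM with PBS, and 1088 and 438.7 with LPS, in libraries made from poly(A) RNA. For comparison the correlation was 0.01 for Ciita, 0.09 for H2-DMa and 0.13 for H2-DMb1. The genes that make up the mean were at 0.94 (H2-Aa), 0.89 (H2-Ab1), 0.87 (Cd74) and 0.82 (H2-Eb1). All of these lay below the genes named above, which were picked as the highest. The 12 points share the genotype, the treatment and the library scale, and the values are a description. The same measure was not computed for RAW264.7, where 3 of the 4 genes had 4 counts or fewer.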

How the data were processed

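Libraries of poly(A) RNA were read from both ends (150 bases each). The authors deposited a table for RAW264.7 and another for BMDMs, which hold raw counts, FPKM and the length of each gene. The submitters' notes name mm10. The sources used here name no aligner or counter. Deposited gene coordinates matched GENCODE M21 for 2.76% of 52034 genes, so positions were taken from GENCODE M21 by gene ID. FPKM remade from the deposited counts and lengths was within 1% of the deposited FPKM for 99.9% (RAW264.7) and 99.5% (BMDM) of values over 50 counts. Groups followed the titles, which the genotype tags contradict in 12 of 24 samples.

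Following the study's methods, limma was used (3.58.1, R 4.3.3), with 4 group means per cell type on log2(FPKM + 0.1). All genes above 0 FPKM in at least 1 library were tested, and p-values were adjusted over all of them. Scripts were tested on simulated data. Alternatives were other pseudocounts (0.01, 1), FPKM filters (0.1 or 1 in 3 libraries), an intensity trend, TPM and median-ratio scaling, 2 groups alone, the adjusted p alone, a replicate block, each library left out, and edgeR 4.0.16 and DESeq2 1.42.0 on the counts. The 7 genes, the lists and the rule for naming genes were chosen with earlier results of these data known. That rule names the 7 genes, then per list and comparison up to 4 called genes with a mean FPKM of at least 1 and the largest changes, with H2-Ea, Rfx5, Ifng, Irf1 and Ctss always, and the 5 genes most like the chains and Cd74. A further regulator and a further cell marker of the lists are not reported here. In RAW264.7, 3 counts were worth 0.05 to 0.15 FPKM for the chains and Cd74, so levels below that were not resolved.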

Additional observations from a re-analysis of the deposited data

Results flagged for a closer look

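The interaction term tests whether the effect of the knockout differed between PBS and LPS, and 39 genes of the pathway were tested in each cell type. In BMDMs 6 of the 39 passed the adjusted p alone (15.4%, limma), where 6.53% of all genes did, and 2 of the 39 were called (5.13%), where 2.93% were. The called genes were Irf8 (log2 difference -1.83) and Cd83 (-0.60), and of the 7 genes Cd74 passed the adjusted p (0.33, adjusted p = 0.0405), below 1.5-fold. The Cd74 value was 0.22 with median-ratio scaling (adjusted p = 0.195) and 0.23 with edgeR (adjusted p = 0.00986). With the replicate number as a block its limma adjusted p was 0.0971. With a library left out its limma adjusted p ranged from 0.0357 to 0.0933. In RAW264.7, as labelled, 4 of the 39 were called (10.3%), where 1.95% of all genes were and 2.09% passed the adjusted p alone. These were Irf1 (-1.15), Prdm1 (3.44), Lgmn (-0.64) and Il10 (-2.89). Prdm1 and Il10 were at or near 0 in all PBS libraries and did not pass with edgeR (adjusted p = 0.976 and 0.629) or DESeq2 (0.0798 and 0.513).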

How the results depend on the processing

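The calls in BMDMs with LPS depended on the scale, and those in RAW264.7 on single libraries. Depth limited 5 genes in RAW264.7, which had 29 counts or fewer each. Of the 7 genes, the count called lower in RAW264.7 labelled knockout with PBS was 1, and 0 with a pseudocount of 0.01, TPM scaling or 2 groups alone (0 to 1 with a library left out). With LPS it was 2, and 0 with a pseudocount of 1, 1 with TPM and 1 with 2 groups alone (0 to 2). For LPS against PBS in RAW264.7 labelled knockout it was 0, and 1 with either FPKM filter and with edgeR without a filter (0 to 1). In BMDMs the count lower in knockout with PBS was 3, and 1 with a pseudocount of 1 (2 to 4). With LPS it was 0, and 4 with the adjusted p alone and 2 with median-ratio scaling, edgeR with and without a filter, and DESeq2 (0 to 1). For LPS against PBS it was 1 in each genotype, and 3 with those same 4 settings. It was 5 in wild type and 7 in knockout with the adjusted p alone, and 2 in wild type with TPM (1 to 2 in wild type and 1 to 1 in knockout). For the BMDM interaction it was 0, and 1 with the adjusted p alone.

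Directions turned under median-ratio scaling, edgeR, edgeR without a filter and DESeq2, given in that order as log2 fold changes. For LPS against PBS in wild-type BMDMs these were H2-Aa at 0.50, 0.47, 0.41 and 0.50, H2-Eb1 at 0.34, 0.31, 0.25 and 0.34, H2-DMa at 0.26, 0.23, 0.17 and 0.27 and H2-DMb1 at 0.26, 0.24, 0.18 and 0.27. In knockout BMDMs they were H2-Aa at 0.45, 0.43, 0.37 and 0.45, H2-Eb1 at 0.29, 0.27, 0.21 and 0.28, H2-DMa at 0.32, 0.30, 0.24 and 0.32 and H2-DMb1 at 0.30, 0.28, 0.23 and 0.30. For knockout against wild type with LPS in BMDMs they were H2-DMa at -0.046, -0.041, -0.034 and -0.051 and H2-DMb1 at -0.040, -0.042, -0.035 and -0.054. For the BMDM interaction they were H2-Aa at -0.055, -0.043, -0.040 and -0.052 and H2-Eb1 at -0.057, -0.045, -0.042 and -0.059, and for LPS against PBS in wild-type RAW264.7 H2-DMa at 0.063, 0.064, 0.060 and 0.076. Single settings also turned values near 0. Cd74 was at -0.019 with TPM for LPS against PBS in wild-type BMDMs, Ciita at -0.094 with a pseudocount of 1 and -0.094 with median-ratio scaling for the BMDM interaction, and Cd74 at -0.0019 with edgeR and -0.018 without its filter for the RAW264.7 interaction. With a library left out, values that turned ranged as follows: for LPS against PBS in wild-type BMDMs, -0.012 to 0.054 (Cd74) and -0.030 to 0.13 (H2-Ab1), for knockout with LPS -0.011 to 0.21 (H2-DMb1), for the BMDM interaction -0.062 to 0.15 (H2-Eb1) and -0.055 to 0.13 (Ciita), and for the RAW264.7 interaction -0.092 to 0.23 (Cd74). The cause was not tested.

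Same-numbered libraries of different groups correlated at a mean of -0.0014 in RAW264.7 and 0.034 in BMDMs over 18 pairs each. Differently numbered ones correlated at 0.00074 and -0.017 over 36 pairs each. Whether the replicate numbers pair the BMDM samples weakly was not tested. With the replicate number as a block the counts called were 1, 2, 0, 0 and 0 in RAW264.7 and 3, 0, 1, 1 and 0 in BMDMs, for knockout against wild type (as labelled) with PBS and with LPS, LPS against PBS in wild type and in knockout, and the interaction, and no call changed.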
